A study of Homo sapiens with 6 samples.

Results

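Amino acid transporters of the plasma membrane were examined after MPM-1 treatment of SW480, an established line derived from a human colorectal adenocarcinoma. The genes were chosen by symbol, with earlier results of these data known. They are SLC7A11, SLC3A2, SLC7A5, SLC7A1, SLC1A4, SLC1A5, SLC38A1, SLC38A2, SLC6A9 and SLC7A6. All 10 were present among the 12982 genes of the deposited table. MPM-1 is a small fluorescent molecule made to accumulate in mitochondria, and the sample labels call it WT4 and state that this is MPM-1. One group of 3 libraries came from cells given MPM-1 for 24 h, and the control group of 3 libraries came from cells given the solvent DMSO for the same time. Both groups were cells of 1 line, labeled as genotype WT, and both were grown in DMEM with serum and added L-glutamine, so glutamine was supplied to controls and treated cells alike. The dose of MPM-1 used for sequencing is not named in the sources used here.

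Cells take up amino acids through membrane proteins of the solute carrier (SLC) families. Some of them, such as SLC7A5 and SLC7A11, are light chains that need the heavy chain SLC3A2 to reach the cell surface, and they work by exchanging one amino acid for another. Others, such as SLC38A2, use the sodium gradient to accumulate amino acids against their concentration. Shortage of amino acids or damage to mitochondria is known to raise translation of the transcription factor ATF4, which induces many of these genes together with enzymes of amino acid synthesis. SLC7A11 is also a known target of NRF2 (NFE2L2), the factor of the antioxidant response. Colorectal cancer cells are known to use large amounts of glutamine, and SLC1A5 is one of the carriers through which it enters.

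Each library held between 31733667 and 40269820 counts, and a count of 3 corresponded to 0.0695 to 0.0985 CPM (counts scaled to the size of the library), so all 10 transporters were measured far above that limit. The libraries separated by treatment on the first principal component, which carried 72.8% of the variance. Transcripts of the mitochondrial genome made up 8.28% to 9.11% of the counts in DMSO libraries and 1.95% to 2.35% in MPM-1 libraries. Their part in the values below was not tested. Scaling by library size alone was used as an alternative. It lets this share and all other differences in composition act on every gene, so it does not isolate this share. Of 9 markers of colon epithelium, 8 were measured, with a summed level of 8260 to 9640 CPM in DMSO and 12200 to 13700 CPM in MPM-1 libraries. Of these, 4 rose and 3 fell. The keratins KRT8, KRT18 and KRT19 and the cadherin CDH1 had log2 fold changes of 0.42, 0.89, 0.89 and 0.82, and the intestinal factor CDX2, villin (VIL1) and KRT20 of -2.20, -0.88 and -2.03. Of 6 fibroblast markers 2 were measured, with a sum of 4.79 to 5.47 CPM in DMSO and 2.0 to 2.89 CPM in MPM-1 libraries. Of 5 leukocyte markers 2 were measured, with a sum of 10.5 to 11.6 CPM in DMSO and 6.04 to 7.95 CPM in MPM-1 libraries. CD14 fell by 1.34 on the log2 scale and CD79A rose by 1.01. PTPRC, the general leukocyte marker, and all 4 endothelial markers were not in the table. The part of these markers in the transporter values was not tested.

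After 24 h of MPM-1, transcripts of 9 of the 10 transporters rose and those of SLC7A6 fell (edgeR quasi-likelihood test, Benjamini-Hochberg adjusted p-value under 0.05 over all genes). Across all genes tested, 27.7% rose and 28.8% fell by the same rule. That near balance came with TMM scaling, under which 3596 genes rose and 3740 fell, and with library size alone 2589 rose and 4871 fell. The rises ranged from 1.24-fold for SLC7A1 to 3.35-fold for SLC7A11, and the fall of SLC7A6 was 1.67-fold. SLC7A11 and SLC3A2, both subunits of the cystine/glutamate exchanger, were the 2 members called, meaning a change of at least 1 on the log2 scale with an adjusted p-value under 0.01. Among all genes, 5.58% were called higher and 8.75% lower, and no transporter of the 10 was called lower. In CPM the lowest MPM-1 library lay above the highest DMSO library for 9 transporters and below the lowest DMSO library for SLC7A6, an arrangement that 31% of all genes showed upward and 33.3% downward. The median log2 fold change of the 10 was 0.80, compared with -0.026 over all genes. These are values of bulk RNA, in which fewer cells of a kind and less RNA per cell cannot be told apart.

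**Figure D1:**
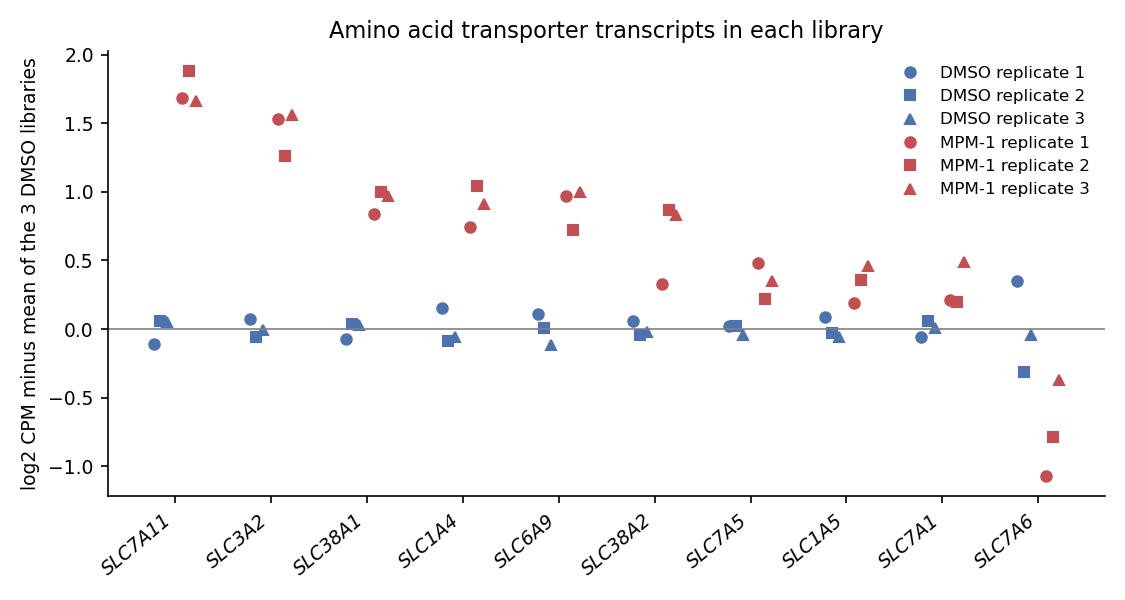
Level of each transporter in each of the 6 libraries, as log2 CPM minus the mean of the 3 DMSO libraries, with DMSO in blue, MPM-1 in red and a marker shape per replicate number. The MPM-1 points of 9 transporters lie above all DMSO points, from 1.66 to 1.88 for SLC7A11, and those of SLC7A6 lie below them.

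The promoters of the transporters were searched for short motifs of the 2 factors named above, because their genes moved mostly in one direction. The windows came from RefSeq (GRCh38.p14) and covered 250 bases before and 50 bases from each annotated start. There were 15 windows for 9 of the 10 genes and none for SLC7A11. The first motif was TGATGNAA, the core of the C/EBP-ATF response element (CARE) at which ATF4 binds, searched on both strands. It occurred in 5 of the 15 windows, 1 each for SLC1A4, SLC3A2, SLC38A1, SLC7A1 and SLC1A5, against 3.62% of all 35116 promoter windows and 1.91% of those of genes in the table. The second was TGACNNNGC, the core of the antioxidant response element (ARE) of NRF2, also on both strands. It occurred in 5 windows, 1 each for SLC3A2, SLC7A1, SLC7A6, SLC7A5 and SLC1A5, against 13.3% of all windows and 14.5% of those of genes in the table. The genes and both motifs were chosen with earlier results of these data known, so these shares are descriptive and test nothing. A match describes letters only and is not evidence of binding.

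The following stretches of 30 bases hold the CARE matches of the 5 genes named above. As 9 of the 10 transporters rose, any motif shared among them lies mostly in genes that rose. They are written 5′ to 3′ on the strand of the gene, with the match in capitals. The coordinates are those of GRCh38, and TTGCATCA and TTACATCA are matches on the opposite strand.
SLC1A4, chr2:64989381-64989410, plus strand: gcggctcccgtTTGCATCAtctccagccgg
SLC3A2, chr11:62881719-62881748, plus strand: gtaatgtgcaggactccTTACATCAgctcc
SLC38A1, chr12:46266502-46266531, minus strand: tcagacccgaaTGATGAAAagggatcagct
SLC7A1, chr13:29595663-29595692, minus strand: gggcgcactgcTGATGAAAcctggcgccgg
SLC1A5, chr19:46784893-46784922, minus strand: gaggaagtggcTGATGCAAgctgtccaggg
SLC38A1 and SLC7A1 shared the same 8 letters, as did SLC1A5 and SLC1A4 when the latter is read on the opposite strand. With the start of the window's transcript as position 0, the first base of the match lay at -7 in SLC1A4, -4 in SLC38A1, 7 in SLC7A1, 37 in SLC3A2 and -97 in SLC1A5. The matches in SLC3A2, SLC7A1 and SLC1A5 fell in annotated exons (GENCODE release 29), and those in SLC1A4 and SLC38A1 in no exon of the gene.

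Of the ARE matches, the one before a start of SLC3A2 and the one at the start of SLC7A5 are shown because the products form 1 transporter, and 1 of the 2 in SLC7A6 because that gene fell.
SLC3A2, chr11:62881652-62881681, plus strand: cgagggtgggTGACTCAGCgtcctccttcc
SLC7A5, chr16:87869490-87869519, minus strand: gcggggttccTGACGCAGCtgcgggcggcg
SLC7A6, chr16:68264487-68264516, plus strand: cggcggcgggTGACGTGGCggggcggggcc
SLC3A2 thus held both motifs within 1 window, as did SLC7A1. The ARE match in SLC1A5 lay in coding sequence and that in SLC3A2 in an annotated exon. Those in SLC7A1, SLC7A5 and SLC7A6 lay in no exon of the gene. The 2 genes with the ARE motif but without the CARE motif were SLC7A5, which rose 1.28-fold, and SLC7A6, which fell. SLC38A2 and SLC6A9 held neither motif in their windows and rose 1.62-fold and 1.87-fold. Of the genes with the CARE motif, SLC7A1 and SLC1A5 rose 1.24-fold and 1.26-fold, and SLC1A4, SLC38A1 and SLC3A2 rose 1.87-fold, 1.92-fold and 2.74-fold. Whether either motif had a part in these changes was not tested.

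SLC7A11 (chr4:138164097-138242349, minus strand, ENSG00000151012) encodes xCT, the light chain that imports cystine in exchange for glutamate and so supplies cysteine for glutathione. Its level was 57.8, 65.1 and 64.8 CPM in the 3 DMSO libraries and 200, 231 and 198 CPM in the 3 MPM-1 libraries. Every MPM-1 library was thus more than 3 times the highest DMSO library, and the spread within each group was small beside the gap. The log2 fold change was 1.74 (SE 0.09, 95% interval 1.54 to 1.95, edgeR adjusted p-value 8.42e-07). It stayed between 1.69 and 1.80 when any 1 of the 6 libraries was left out.

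SLC3A2 (chr11:62856102-62888875, plus strand, ENSG00000168003) encodes the heavy chain of CD98, the shared partner of SLC7A11, SLC7A5 and SLC7A6. It was measured at 193, 177 and 184 CPM with DMSO and at 531, 441 and 542 CPM with MPM-1. MPM-1 replicate 2 was the lowest of the treated libraries and still lay far above the controls. The log2 fold change was 1.45 (SE 0.09, 95% interval 1.25 to 1.66, edgeR adjusted p-value 2.72e-06).

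Among the light chains of the large neutral amino acids, SLC7A5 (chr16:87830023-87869488, minus strand, ENSG00000103257) encodes LAT1, which exchanges intracellular glutamine for leucine and other essential amino acids. Its level was 173, 174 and 166 CPM in DMSO libraries and 238, 199 and 218 CPM in MPM-1 libraries. The groups did not overlap, and the log2 fold change was 0.35 (SE 0.08, 95% interval 0.17 to 0.54, edgeR adjusted p-value 0.00501). It did not pass 0.05 in any of the 4 fits of limma to log2 FPKM, where the log2 fold change was between 0.19 and 0.20.

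SLC7A6 (chr16:68264516-68301823, plus strand, ENSG00000103064) encodes y+LAT2, a light chain that exchanges arginine for neutral amino acids, and was the transporter that fell. Its level was 31.0, 19.7 and 23.8 CPM with DMSO and 11.6, 14.1 and 18.9 CPM with MPM-1. Both groups were wide, and DMSO replicate 2 exceeded MPM-1 replicate 3 by less than 1 CPM. The log2 fold change was -0.74 (SE 0.21, 95% interval -1.20 to -0.27, edgeR adjusted p-value 0.0127). Without DMSO replicate 1, the highest library, it was -0.55 with an adjusted p-value of 0.0521. SLC7A6 overlaps SLC7A6OS on the opposite strand over 17321 bases. SLC7A6OS, whose log2 fold change was -0.20 (edgeR adjusted p-value 0.0955), had a mean count of 1240. Whether counting used the strand is not stated, so reads of the shared stretch cannot be assigned with certainty.

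SLC7A1 (chr13:29509410-29595688, minus strand, ENSG00000139514) encodes CAT1, a carrier of arginine and lysine that works without a heavy chain. Its level was 93.8, 102 and 98.6 CPM with DMSO and 113, 113 and 138 CPM with MPM-1. MPM-1 replicate 3 stood above the other two, and all 3 exceeded the controls. The log2 fold change of 0.30 (SE 0.09, 95% interval 0.10 to 0.51, edgeR adjusted p-value 0.0193) was the smallest of the 10 in size. It was 0.27 without DMSO replicate 1 (adjusted p-value 0.0537), 0.31 without DMSO replicate 3 (adjusted p-value 0.0504) and 0.22 without MPM-1 replicate 3 (adjusted p-value 0.0713), so passing 0.05 rested on each of these libraries.

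The carriers of small neutral amino acids SLC1A5 and SLC1A4 belong to one family but stood at very different levels. SLC1A5 (chr19:46774883-46788594, minus strand, ENSG00000105281) encodes ASCT2, the sodium-dependent exchanger through which many tumor cells take up glutamine. It was measured at 286, 263 and 256 CPM with DMSO and at 305, 343 and 370 CPM with MPM-1. MPM-1 replicate 1 lay near the highest control, and the log2 fold change was 0.34 (SE 0.09, 95% interval 0.14 to 0.54, edgeR adjusted p-value 0.00871).

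SLC1A4 (chr2:64988477-65023865, plus strand, ENSG00000115902) encodes ASCT1, an exchanger of alanine, serine and cysteine. Its level was 8.67, 7.36 and 7.48 CPM with DMSO and 13.1, 16.1 and 14.8 CPM with MPM-1. All treated libraries were clearly above all controls, with a log2 fold change of 0.90 (SE 0.15, 95% interval 0.56 to 1.24, edgeR adjusted p-value 0.000764). Its rise was thus 1.87-fold, against 1.26-fold for SLC1A5.

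SLC38A1 (chr12:46183063-46270017, minus strand, ENSG00000111371) and SLC38A2 (chr12:46358189-46372867, minus strand, ENSG00000134294) lie next to each other on chromosome 12. They encode SNAT1 and SNAT2, which carry glutamine and alanine into the cell together with sodium. SLC38A1 was measured at 130, 140 and 139 CPM with DMSO and at 244, 272 and 268 CPM with MPM-1. The libraries of each group were close together, and the log2 fold change of 0.94 (SE 0.08, 95% interval 0.77 to 1.11, edgeR adjusted p-value 1.05e-05) fell just short of the threshold of 1, which it reached without MPM-1 replicate 1, at 1.00. SLC38A2 was measured at 221, 206 and 209 CPM with DMSO and at 266, 388 and 377 CPM with MPM-1. MPM-1 replicate 1 stood apart, nearer to the controls than to the other treated libraries. The log2 fold change was 0.70 (SE 0.13, 95% interval 0.40 to 0.99, edgeR adjusted p-value 0.00146), and 0.86 without that library.

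SLC6A9 (chr1:43991500-44031467, minus strand, ENSG00000196517) encodes GlyT1, which takes up glycine with sodium and chloride. Its level was 8.16, 7.59 and 6.93 CPM with DMSO and 14.8, 12.5 and 15.1 CPM with MPM-1. The treated libraries were all above the controls, with a log2 fold change of 0.90 (SE 0.15, 95% interval 0.57 to 1.24, edgeR adjusted p-value 0.000752). Without MPM-1 replicate 2 it was 1.01, past the threshold of 1. CCDC24 overlaps SLC6A9 on the opposite strand over 5029 bases and had a mean count of 594, against 269 to 507 counts for SLC6A9. The log2 fold change of CCDC24 was 0.01 (edgeR adjusted p-value 0.946). As strand use in counting is not stated, reads of this shared stretch cannot be assigned with certainty either.

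The small rises depended on how libraries were scaled. With library size alone the median over all genes moved from -0.026 to -0.18, and the changes of SLC7A1 and SLC1A5 were then 0.15 and 0.19 and no longer passed. With library size alone the change of SLC7A5 was 0.20 and still passed (adjusted p-value 0.0405). In the 4 limma fits to FPKM, SLC7A5, SLC7A1 and SLC1A5 did not pass. In FPKM the highest DMSO library of SLC1A5, at 99.3, exceeded the lowest MPM-1 library, at 95.8, and those of SLC7A1 overlapped likewise, at 14.4 and 13.9. SLC7A11, SLC3A2, SLC38A1, SLC38A2, SLC1A4 and SLC6A9 kept their direction and passed the threshold of 0.05 in all 15 alternatives.

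Levels of different genes were compared in FPKM, which takes transcript length into account. With DMSO the most abundant transporters were SLC1A5 at 96.0 ± 2.81 FPKM (SD, n = 3) and SLC3A2 at 93.9 ± 1.57 FPKM, whose libraries overlapped. They were followed by SLC38A2 at 44.6 ± 0.714, SLC7A5 at 38.4 ± 1.03, SLC38A1 at 17.3 ± 1.02 and SLC7A1 at 13.6 ± 0.823 FPKM. SLC7A11 stood seventh at 6.63 ± 0.56 FPKM, above 46.4% of all genes, and was followed by SLC7A6 at 4.31 ± 0.987, SLC6A9 at 2.7 ± 0.28 and SLC1A4 at 1.78 ± 0.132 FPKM. No neighbors in this order other than the first pair overlapped.

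With MPM-1 the heavy chain SLC3A2 stood alone at the top with 233 ± 18.0 FPKM (SD, n = 3), ahead of SLC1A5 with 110 ± 12.4 FPKM. SLC38A2 with 66.3 ± 14.0, SLC7A5 with 44.1 ± 3.11 and SLC38A1 with 30.1 ± 2.21 FPKM kept their places. SLC7A11 moved above SLC7A1, with 20.0 ± 2.11 against 15.1 ± 1.78 FPKM. At the low end were SLC6A9 with 4.29 ± 0.349, SLC1A4 with 2.95 ± 0.358 and SLC7A6 with 2.26 ± 0.672 FPKM, the last 2 of which overlapped. SLC7A6 thus became the least abundant of the 10 on average.

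**Figure D2:**
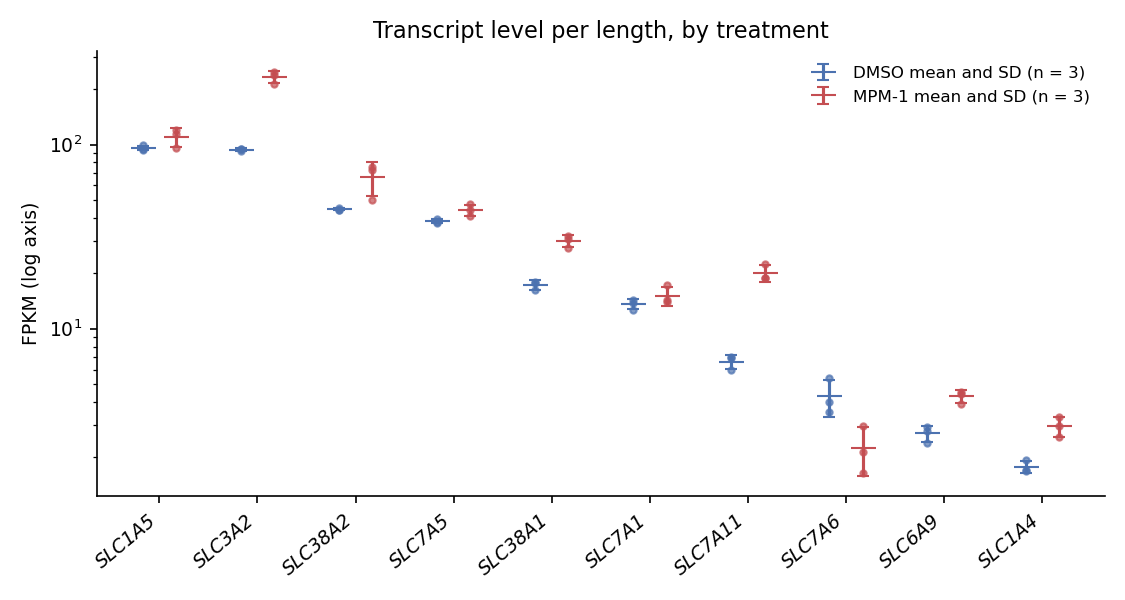
Transcript level of the 10 transporters in FPKM on a log axis, with a point per library and the mean and SD of the 3 DMSO (blue) and 3 MPM-1 (red) libraries. SLC3A2 rises from 93.9 to 233 FPKM and SLC7A11 from 6.63 to 20.0 FPKM, whereas SLC1A5 and SLC7A1 overlap between treatments on this scale.

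Ratios within a library do not depend on how libraries are scaled against each other, and 4 pairs of related transporters were compared in this way. With 3 libraries against 3, the two-sided exact permutation test cannot give a p-value below 0.1, so no ratio could pass 0.05, and all 4 gave this smallest p-value of 0.1 (adjusted 0.1). The ratio of SLC7A11 to SLC7A5 was 0.157, 0.176 and 0.184 with DMSO and 0.397, 0.547 and 0.428 with MPM-1. The cystine light chain thus gained on the leucine light chain in every treated library, by 1.40 on the log2 scale. The ratio of SLC7A6 to SLC7A5 was 0.142, 0.0888 and 0.106 with DMSO and 0.0349, 0.0522 and 0.0677 with MPM-1, a log2 difference of -1.15.

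The ratio of SLC1A4 to SLC1A5 went from 0.0185 ± 0.000823 (SD, n = 3) to 0.0269 ± 0.00209, a log2 difference of 0.54. Even so, SLC1A5 remained by far the more abundant of the pair. The ratio of SLC38A2 to SLC38A1 was 2.81, 2.45 and 2.49 with DMSO and 1.82, 2.38 and 2.37 with MPM-1. The difference of -0.25 on the log2 scale rested partly on MPM-1 replicate 1, the low one, and was -0.12 without it.

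The heavy chain SLC3A2 is shared by several light chains, of which SLC7A5, SLC7A6, SLC7A7, SLC7A8 and SLC7A11 were measured. SLC7A11 made up 6.83%, 7.49% and 7.96% of their summed FPKM in the DMSO libraries and 18.9%, 24.6% and 20.4% in the MPM-1 libraries. The share of SLC7A11 was thus 13.8 percentage points higher on average, with no overlap between treatments. SLC7A5 held 43.1% ± 0.528 (SD, n = 3) with DMSO and 46.7% ± 1.44 with MPM-1 and was the largest light chain in both. SLC7A7, which encodes y+LAT1, went from 38.8% ± 0.904 to 23.8% ± 1.16, and SLC7A6 from 4.86% ± 1.23 to 2.41% ± 0.781. SLC7A8, which encodes LAT2, was at 5.85% ± 0.922 and 5.87% ± 2.25. No test was made on these shares, which add up to a fixed whole.

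The summed light chains were at 89.2 ± 3.39 FPKM with DMSO and 94.5 ± 4.44 FPKM with MPM-1. As SLC3A2 rose, the ratio of heavy to light chain transcripts went from 1.09, 0.99 and 1.08 to 2.41, 2.33 and 2.67. Without SLC7A11 the sum of the other light chains was 82.6 ± 3.17 FPKM with DMSO and 74.5 ± 6.01 FPKM with MPM-1. These are transcript levels and give no account of the protein complexes.

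**Figure D3:**
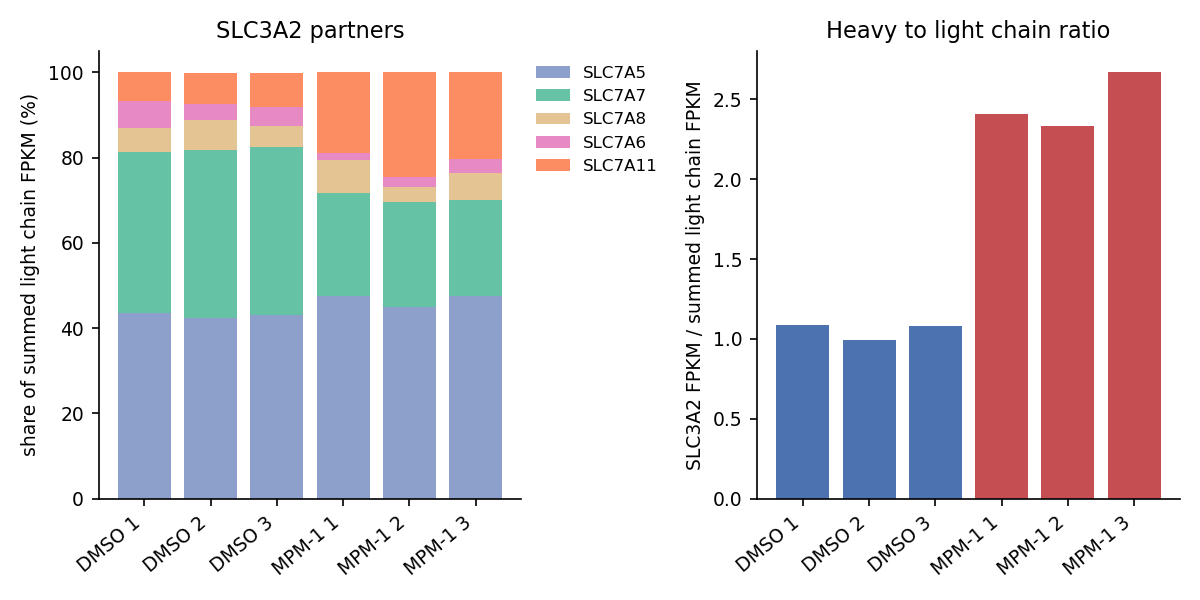
Share of each of 5 light chains in their summed FPKM (left, in percent) and ratio of SLC3A2 to that sum (right), a bar per library. The SLC7A11 segment grows from between 6.83% and 7.96% to between 18.9% and 24.6%, and the ratio from about 1 to between 2.33 and 2.67.

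Of 31 other amino acid transporters of the plasma membrane, 13 were measured. Of these 2 rose, 7 fell and 4 did not pass, with a median log2 fold change of -0.45. Among all genes 27.7% rose, 28.8% fell and 8.75% were called lower. The risers were the taurine transporter SLC6A6, with a log2 fold change of 0.91 (SE 0.14, edgeR adjusted p-value 0.000467), and SLC43A1, a carrier of branched-chain amino acids, with 0.66 (SE 0.09, edgeR adjusted p-value 0.000227). In the main edgeR fit only SLC1A7, a glutamate transporter, was called, and it fell from 10.1, 7.48 and 9.69 CPM to 0.591, 0.455 and 0.983 CPM. Its log2 fold change was -3.73 (SE 0.30, edgeR adjusted p-value 1.04e-05), further from 0 than that of any of the 10 transporters above. The edgeR fits with library size alone and with the replicate block, and the DESeq2 test, each called 2 of the 13 lower. Limma with pseudocounts of 0.1 and 0.01 called 2 lower and 1 higher of the 11 that passed its filter. With 0.1 and no filter it called the same numbers of the 13. Without DMSO replicate 1, 1 of the 13 was called higher in edgeR. The neuronal and epithelial glutamate transporter SLC1A1 fell as well, by 0.88 on the log2 scale.

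SLC7A7, the second largest light chain of SLC3A2 with DMSO, fell by 0.45 on the log2 scale (SE 0.07, edgeR adjusted p-value 0.000699). SLC7A8 had a log2 fold change of 0.34 (SE 0.21, edgeR adjusted p-value 0.186), and 0.54 without MPM-1 replicate 2, with an adjusted p-value of 0.0376. The arginine carrier SLC7A2, related to SLC7A1, fell by 0.65, the leucine carrier SLC43A2 by 0.50 and the proline carrier SLC6A20 by 0.49. The fits without DMSO replicate 2 or 3 gave SLC7A2 adjusted p-values of 0.0636 and 0.0683 and SLC43A2 0.0538 and 0.065. SLC6A19, a carrier of neutral amino acids in gut and kidney, fell by 1.65 at under 3 CPM in every library, and it no longer passed 0.05 without any one of DMSO replicates 1 and 3 and MPM-1 replicates 1 and 2 (adjusted p-values 0.0707 to 0.0836). Over 165 other SLC genes of the table, leaving out the mitochondrial SLC25 family, 51 rose and 48 fell, with a median log2 fold change of -0.03. These shares lay near the 27.7% and 28.8% over all genes.

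**Figure D4:**
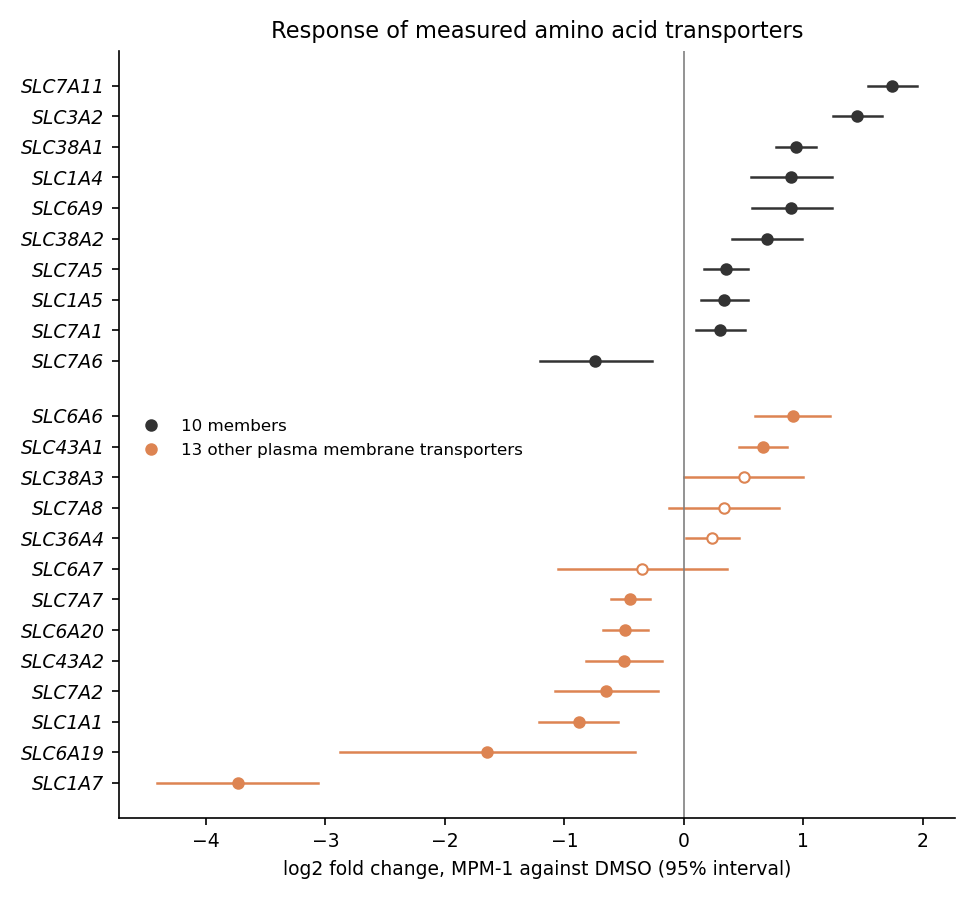
Log2 fold change of MPM-1 against DMSO with its 95% interval for the 10 transporters (black) and 13 other amino acid transporters of the plasma membrane (orange), filled where the adjusted p-value was under 0.05. The 10 run from -0.74 for SLC7A6 to 1.74 for SLC7A11, and the others from -3.73 for SLC1A7 to 0.91 for SLC6A6.

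The regulators and targets of the amino acid response, written as a list of 12 genes, gave 11 measured genes. Of these 10 rose, 7 of them called (5 with library size alone and in 3 of the limma fits, and 4 with limma and a pseudocount of 1), and the kinase EIF2AK4 (GCN2), which senses uncharged tRNA, fell by 0.36 on the log2 scale (edgeR adjusted p-value 0.00457). In the main fit 27.7% of all genes rose, 28.8% fell and 5.58% were called higher. The largest changes were those of the transcription factors ATF3, at 3.08 (SE 0.22, edgeR adjusted p-value 5.11e-06), and DDIT3 (CHOP), at 2.98 (SE 0.19, edgeR adjusted p-value 3.06e-06). ATF4 itself was measured at 428, 400 and 417 CPM with DMSO and at 960, 780 and 820 CPM with MPM-1, a log2 fold change of 1.04. ASNS, the asparagine synthetase, rose by 2.27 on the log2 scale, a larger value than for any of the 10 transporters. The pseudokinase TRIB3 had a log2 fold change of 1.99 and CHAC1, which breaks down glutathione, 1.23.

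Of 12 genes of the NRF2 axis and of glutathione synthesis, 11 were measured, 7 rose and 2 fell, with a median log2 fold change of 0.35. By the same rules 27.7% of all genes rose, 28.8% fell and 5.58% were called higher. The only one called was the quinone reductase NQO1, whose log2 fold change of 1.00 (SE 0.07, edgeR adjusted p-value 3.41e-06) lay at the threshold and was no longer called in 8 of the 15 alternatives, among them those without DMSO replicate 1 or MPM-1 replicate 2. GCLC, the catalytic subunit of the enzyme that commits cysteine to glutathione, rose by 0.88 on the log2 scale. KEAP1, the inhibitor of NRF2, fell by 0.56, and CTH, which makes cysteine from cystathionine, by 0.75. NFE2L2, which encodes NRF2 itself, had a log2 fold change of 0.74 (edgeR adjusted p-value 7.32e-05). HMOX1 and GPX4, at 0.01 and 0.02, were the 2 that did not pass. Whether NRF2 had a part in the change of 1.74 in SLC7A11 was not tested.

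Of 10 enzymes that make or use glutamine and glutamate, all were measured, 4 rose and 3 fell, with a median log2 fold change of 0.13. Over all genes 27.7% rose and 28.8% fell. GFPT1, which uses glutamine for amino sugars, rose by 1.57 (SE 0.11, edgeR adjusted p-value 5.09e-06). CAD, which uses it to begin pyrimidine synthesis, fell by 1.07 (SE 0.10, edgeR adjusted p-value 2.19e-05). With library size alone 2 of the 10 rose and 4 fell, in each limma fit 1 rose and 4 fell, and without DMSO replicate 3 the number that rose was 2.

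The genes whose pattern over the 6 libraries was nearest to SLC7A11 were found by the root mean square difference of log2 CPM, each gene centered on its DMSO mean, among 12126 other genes with an Ensembl identifier. MYH15, a myosin heavy chain, differed by 0.0565, the fatty acid activating enzyme ACSL5 by 0.06 and NT5E, the ectonucleotidase CD73, by 0.0719. Their log2 fold changes were 1.76, 1.70 and 1.77, and MYH15 was low, at 4.4 to 5.53 CPM with DMSO. With 6 libraries in 2 groups, such nearness mainly restates a like fold change.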

How the data were processed

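RNA of SW480 cells was sequenced in 3 libraries per treatment, assigned from the sample labels. The authors deposited 1 table with the count of each gene per library, as whole numbers without normalization, and its FPKM, scaled by the authors for length and depth. The table's FDR and log2 fold change columns hold the authors' own comparison and were not used. The submitters' processing notes name HISAT2, DESeq2 and mm10. That is a mouse build, whereas the identifiers are human Ensembl genes. The counter, annotation, strand use and gene filter are not given in the sources used here. Every gene had at least 115 counts in total.

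Counts were tested with edgeR 4.0.16 (R 4.3.3; TMM scaling, quasi-likelihood, no covariates, Benjamini-Hochberg over 12982 genes), checked on simulated data. CPM values are scaled by TMM, and a prior count of 2 was added for logarithms. Alternatives were the size factors and test of DESeq2 1.42.0, library size alone, a mean of at least 50 counts, limma 3.58.1 on log2(FPKM + 0.1, 1 or 0.01) with a mean of at least 1 FPKM or no filter, a replicate block and each library left out. Intervals are 95%. Coordinates are from GENCODE release 29 (GRCh38) and promoters from RefSeq. Nothing says that libraries came from separate cultures, so p-values measure the spread between these libraries, which may be technical. No pair of libraries was a duplicate.

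The members, lists and motifs were chosen with earlier results of these data known. Genes named were the 10 members, in each list the 2 largest rises and falls among genes called, the measured partners of SLC3A2, the 3 genes nearest to SLC7A11 and genes overlapping a member, of which 1 is not reported here. All other genes given with values were chosen after their values were seen. The 45 other genes followed over the alternatives below include 29 chosen so, some of them not named here. They leave out NFE2L2, HMOX1, GPX4, KRT8, KRT18, KRT19, CDH1, VIL1, CD14 and CD79A.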

Additional observations from a re-analysis of the deposited data

How the results depend on the processing

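Of 150 member log2 fold changes over 15 alternatives, 132 kept their direction and side of 0.05, 18 no longer passed and 0 changed direction. The median over the members, 0.80, was 0.65 with library size alone and 0.60, 0.51, 0.61 and 0.60 with limma on log2 FPKM (pseudocounts 0.1, 1 and 0.01, and 0.1 over all genes), while the median of all genes was -0.18, -0.15, -0.13, -0.15 and -0.17. Called higher over all genes were 725, and 537 with library size alone, 445, 351 and 454 with the filtered limma fits; called lower were 1136, and 1470 with library size alone, 1430 with limma over all genes and 716 with a pseudocount of 1. Past 0.05, 3596 genes rose and 3740 fell, against 2345 and 4042 of 11497 with limma at a pseudocount of 0.1. Over the 7 lists, 2 genes were called lower, against 5 with library size alone and 4, 1, 4 and 4 with limma. Members that fell numbered 0 to 1 over the fits without 1 library, with 0 without DMSO replicate 1. CCDC24, at 0.01, changed direction with library size alone (-0.14), in the limma fits (-0.12, -0.11, -0.12 and -0.12) and without DMSO replicate 2 (-0.01) or MPM-1 replicate 1 (-0.06), within -0.06 to 0.11 over the fits without 1 library, and passed in none. Replicate numbers did not pair the libraries (correlations 0.0214, 0.114 and -0.0737; 2 of 6 libraries nearest to their own number). With the replicate block 2 members were called higher and 9 rose, as without it, and the 4 ratios kept their values with a smallest possible exact p-value of 0.25. Without 1 library the ratio tests cannot give a p-value below 0.2. Among 672 values of 45 other genes, 36 no longer passed, 2 newly passed and 7 changed direction. Whether deeper libraries would settle the small changes was not tested.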

Other observations

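Transporters of the lysosome are known to return amino acids from degraded protein to the cytosol. Of 8 listed, 7 were measured, 2 rose and 2 fell, shares near the 27.7% and 28.8% over all genes, with a median log2 fold change of 0.07. MFSD12, a cysteine importer of lysosomes and melanosomes, had a log2 fold change of 0.81 and the histidine and peptide carrier SLC15A4 0.66. SLC36A1, which exports small neutral amino acids, fell by 0.57 and SLC38A9, an arginine sensor of the mTORC1 pathway, by 0.57. Each fall did not pass 0.05 in 3 of the fits without 1 library, SLC36A1 without DMSO replicate 3 and MPM-1 replicates 2 and 3, and SLC38A9 without DMSO replicate 2 and MPM-1 replicates 1 and 3.

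Of 23 plasma membrane carriers of other cargo, 7 rose, 5 fell and 11 did not pass, with a median log2 fold change of 0.05. Over all genes 27.7% rose and 28.8% fell. The glucose transporter SLC2A3 was measured at 36.9, 24.5 and 24.4 CPM with DMSO and at 241, 178 and 237 CPM with MPM-1, a log2 fold change of 2.94 (SE 0.18, edgeR adjusted p-value 2.49e-06). The phosphate carrier SLC20A1 had a log2 fold change of 2.26 (SE 0.20, edgeR adjusted p-value 1.94e-05), and the potassium chloride cotransporter SLC12A7 of 1.29. The lactate carrier SLC16A1 fell by 0.81. Of 5 genes whose products are known to act on the transporters, NEDD4L and OTUB1 rose by 0.35 and 0.27 on the log2 scale. CD44 and LAPTM4B fell by 0.57 and 0.53, and 1 did not pass. With library size alone NEDD4L and OTUB1 did not pass (adjusted p-values 0.0556 and 0.153). CD44 did not pass in 10 of 15 alternatives.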
